A study of Mus musculus with 2 samples.

Results

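Ferritin and the genes that take up, move, sense and release iron were described in macrophages lacking Trem2 and in wild-type (WT) macrophages. The group was set as 10 genes by symbol: the ferritin subunits Fth1 and Ftl1, the iron chaperone Pcbp1, the ferritin cargo receptor Ncoa4, the transferrin receptor Tfrc, the metal transporters Slc11a1 and Slc11a2, the exporter Slc40a1, and the iron sensors Ireb2 and Aco1. Of these, 9 were among the 11349 genes of the deposited table. Slc40a1 was not analysed here. The genes were picked with their values in these libraries known, so the values below describe the genes and test nothing.

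Ferritin is a hollow protein shell built of heavy (Fth1) and light (Ftl1) subunits that stores iron in a safe form, and the heavy subunit oxidises iron as it enters. Macrophages recover iron from engulfed red cells and hand it back to the blood. Cells balance storage against uptake through iron regulatory proteins, which bind a hairpin, the iron-responsive element, in messenger RNAs: in the leader of the ferritin mRNAs binding blocks translation, and in the trailer of the Tfrc mRNA it protects the transcript from decay.

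RNA was sequenced from mouse macrophages taken from the abdominal cavity as primary cells and exposed to TGF-β1, a growth factor of wound repair and scarring, for 24 h. The Trem2 KO group was 1 library from Trem2-/- cells (Trem2 encodes a lipid-sensing receptor of macrophages) and the WT group 1 library whose column is headed C57; both groups had TGF-β1 and an untreated group was not analysed here. The title of the knockout sample gives a full loss and its genotype label says knockdown, and the strain of the knockout mice is not given in the sources used here. With 1 library per group there is no test and no replicate check, and any difference between mice or cultures cannot be told apart from genotype.

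Values are FPKM, which count fragments per length of transcript and per size of library. Depth was estimated at 12.4 M fragments in the Trem2 KO library and 13.5 M in the WT library from the steps between low values. Each interval is a 95% exact (Clopper-Pearson) one for a ratio, rests on these estimated fragments and covers counting error only. Log2 fold changes are log2((Trem2 KO FPKM + 1)/(WT FPKM + 1)), and counts of genes past or within 2-fold use this scale, on which some genes past 2-fold in FPKM itself lie within it. Trem2 was at 13.7 FPKM in the Trem2 KO library and 135 FPKM in the WT library, 9.91-fold lower (interval 9.23 to 10.7), and its adaptor Tyrobp at 1194 FPKM in the Trem2 KO library and 1021 FPKM in the WT library. Which exons the knockout lacks is not stated in the labels. All 13 macrophage markers of a list that includes Adgre1, Csf1r, Cd68 and Lyz2 were listed, with sums of 14757 FPKM in the Trem2 KO library and 12220 FPKM in the WT library, of which Lyz2 gave 10171 FPKM in the Trem2 KO library and 7962 FPKM in the WT library. Their median log2 fold change was -0.60, against -0.31 for all genes, and 6 of the 13 were above 0. Of the 13, 3 (Itgam, Fcgr1 and Aif1) stood lower by 2-fold or more in the Trem2 KO library, where 13.7% of all genes did. Of 10 markers set for peritoneal macrophages 3 were listed, with sums of 3.14 FPKM in the Trem2 KO library and 17.8 FPKM in the WT library. The 2 that averaged at least 1 FPKM, Gata6 and Icam2, were both at least 2-fold lower as deposited. Gata6 was at 2.67 FPKM in the Trem2 KO library and 14.0 FPKM in the WT library.

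The iron-responsive elements are shown because they group the ferritin genes with each other and apart from Tfrc. They were found in GENCODE M21 transcripts by the letters CNNNNNCAGTGN on the sense strand followed by 5 bases that all pair (G with U included) with the 5 bases before the loop. This paired pattern occurs in 565 of 58797 protein-coding transcripts, or 0.961%. Positions are on mm10 and capitals mark the loop of 6 bases. The Fth1 element lies in the 5′ UTR at chr19:9982732-9982760 (+ strand) and the Ftl1 element in the 5′ UTR at chr7:45459779-45459807 (- strand). Tfrc holds 4 such elements in its 3′ UTR, on the + strand at chr16:32631219-32631247, chr16:32631598-32631626, chr16:32631663-32631691 and chr16:32631710-32631738, named a to d below. Slc11a2 has several matches to the letters and none that is fully paired. The letters alone, whatever the pairing, occur in 55.6% of protein-coding transcripts. The Slc11a2 site shown, in the 3′ UTR at chr15:100395153-100395181 (- strand), is the one with most pairs. It pairs at 4 of the 5 positions and belongs to 1 of the annotated isoforms.
Fth1: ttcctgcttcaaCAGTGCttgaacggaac
Ftl1: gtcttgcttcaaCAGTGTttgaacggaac
Tfrc a: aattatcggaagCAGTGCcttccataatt
Tfrc b: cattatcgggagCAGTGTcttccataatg
Tfrc c: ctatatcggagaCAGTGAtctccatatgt
Tfrc d: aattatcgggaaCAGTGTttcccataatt
Slc11a2: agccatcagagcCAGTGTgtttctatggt
Over these 29 bases the Ftl1 element has 26 in common with that of Fth1 and differs by T1G, C4T and C18T, counted from 1 at the 5′ end with the base of Fth1 first, and position 18 is the last base of the loop. The fully paired pattern was not found in transcripts of Slc11a1, Slc11a2, Ireb2, Aco1, Ncoa4 or Pcbp1. A match describes letters in a transcript and does not show binding.

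Ferritin heavy chain was the most abundant listed transcript of both libraries, and more so in the knockout. Fth1 (ENSMUSG00000024661.6, chr19:9982703-9985092) was at 37938 FPKM in the Trem2 KO library and 16692 FPKM in the WT library, a ratio of 2.27 (interval 2.26 to 2.29). Its log2 fold change was 1.18. In bulk RNA, fewer cells of a type and less RNA per cell cannot be told apart.

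Fth1 made up 11.2% of the summed FPKM of the Trem2 KO library and 5.53% of that of the WT library, 2.03 times as much. As a share of sequenced fragments, which depends on the short length of the transcript, it was an estimated 3.29% in the Trem2 KO library and 1.45% in the WT library. The second gene in both libraries, the lysozyme gene Lyz2, had 3.01% of the summed FPKM in the Trem2 KO library and 2.64% in the WT library. Fth1 alone was 21246 FPKM higher in the Trem2 KO library, out of a gap of 36316 FPKM between the column sums. Without Fth1 the sums were 300324 FPKM in the Trem2 KO library and 285253 FPKM in the WT library.

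**Figure D1:**
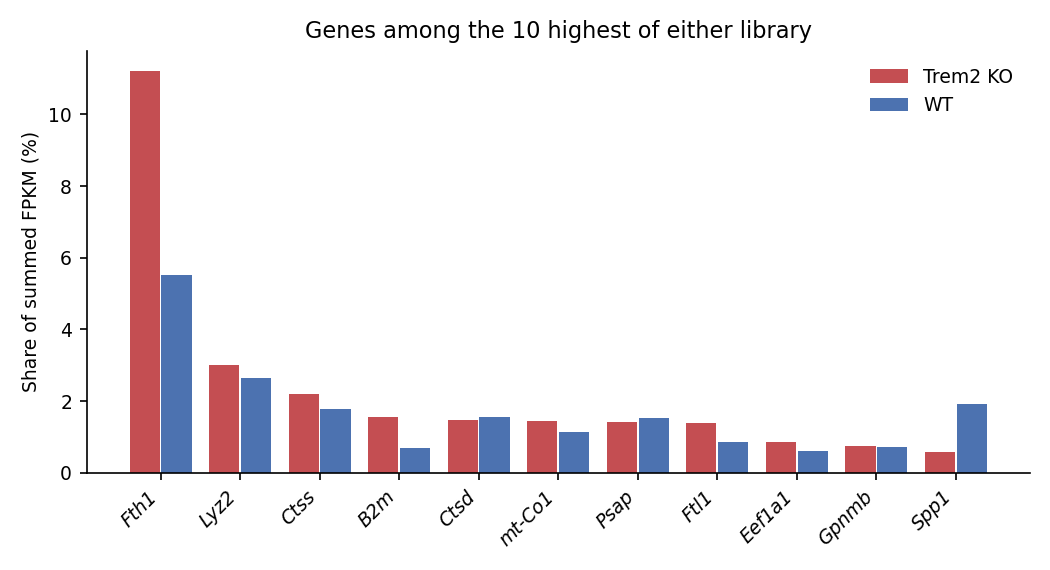
Share of the summed FPKM (%, y axis) of the 11 genes that are among the 10 highest in the Trem2 KO library (red) or the WT library (blue), 1 library each. Fth1 stands above all others in both libraries, at 11.2% in the Trem2 KO library and 5.53% in the WT library, and Ftl1 is at 1.38% in the Trem2 KO library and 0.868% in the WT library.

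The light chain was also higher, by less. Ftl1 (ENSMUSG00000050708.16, chr7:45457944-45459884) was at 4684 FPKM in the Trem2 KO library and 2620 FPKM in the WT library, a ratio of 1.79 (interval 1.77 to 1.81) and a log2 fold change of 0.84, and it ranked 8 in both libraries. Its share was 1.38% in the Trem2 KO library and 0.868% in the WT library. Within a library, where no scaling between libraries enters, Fth1 stood 8.10 times as high as Ftl1 in the Trem2 KO library and 6.37 times in the WT library. Heavy and light chain together made up 12.6% of the summed FPKM in the Trem2 KO library and 6.40% in the WT library.

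Part of the Ftl1 value is uncertain because of copies. Transcripts of 7 other annotated genes match the main Ftl1 transcript at 90% identity or more over at least 50% of its length, the closest at 99.6%, and 1 of them, Ftl1-ps1 (chr13:74399694-74407346), is in the table. Ftl1-ps1 was at 904 FPKM in the Trem2 KO library and 395 FPKM in the WT library, and reads may have been split between it and Ftl1. Their sum was 5588 FPKM in the Trem2 KO library and 3015 FPKM in the WT library, a ratio of 1.85. Against that sum, chosen after the values were seen, Fth1 stood 6.79 times as high in the Trem2 KO library and 5.54 times in the WT library. For Fth1 1 such copy was found, at 90.5% identity and not among the listed genes. Ftl1 also overlaps exons of Gm10252 on the other strand, and whether the counting used strand is not given in the sources used here.

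High transcripts mostly leaned the same way as ferritin. Of the 26 genes that averaged at least 1000 FPKM, 25 had a positive log2 fold change (22 with a common total), with a median of 0.50 over the 26, against -0.31 over the 9962 genes that averaged at least 1 FPKM. At this level 3 genes were at least 2-fold higher in the Trem2 KO library, Fth1 and the MHC class I genes B2m and H2-D1, and 1 was at least 2-fold lower, Spp1. Over all 9962 genes 240 had a higher log2 fold change than Fth1, or 2.41%.

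**Figure D2:**
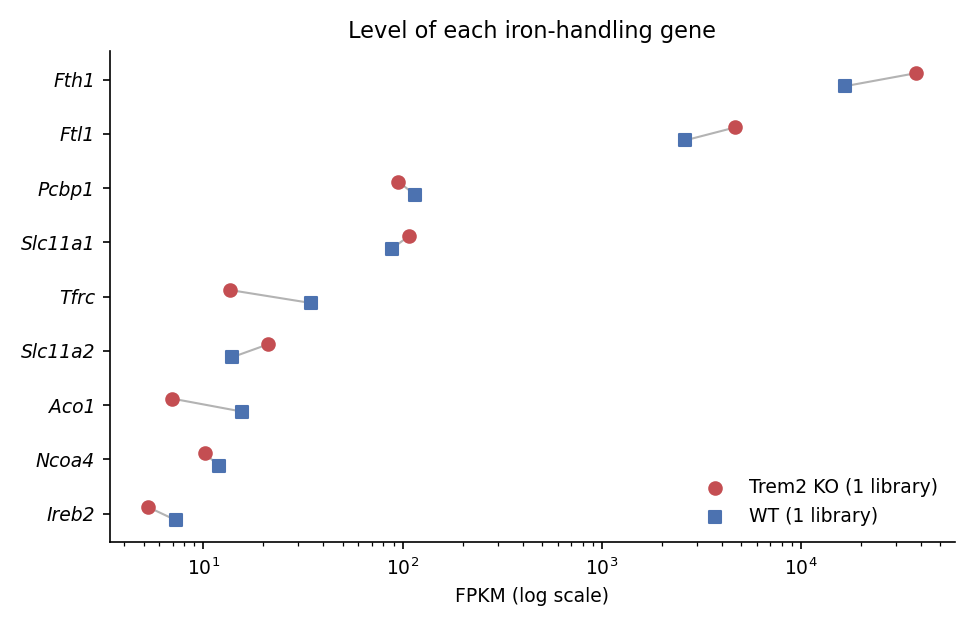
Level of each of the 9 listed iron-handling genes in FPKM (log scale, x axis) in the Trem2 KO library (red circles) and the WT library (blue squares), 1 library each and so without error bars. Fth1, Ftl1, Slc11a1 and Slc11a2 lie further right in the Trem2 KO library and Pcbp1, Tfrc, Aco1, Ncoa4 and Ireb2 further left.

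The transferrin receptor stood lower in the knockout. Tfrc (ENSMUSG00000022797.15, chr16:32608920-32632794), the receptor that carries transferrin-bound iron into the cell, was at 13.6 FPKM in the Trem2 KO library and 34.8 FPKM in the WT library, 2.55-fold lower (interval 2.36 to 2.77). Its log2 fold change was -1.29, a value below which lay 6.90% of all genes. Within a library Fth1 stood 2781 times as high as Tfrc in the Trem2 KO library and 479 times in the WT library. This ratio was 5.80 times as large in the knockout. It was chosen after the values were seen and does not stand for storage or uptake genes as a whole. The pair Ftl1 and Tfrc gave ratios of 343 in the Trem2 KO library and 75.2 in the WT library.

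Slc11a2 (ENSMUSG00000023030.16, chr15:100387898-100425072), known as DMT1, which moves iron out of the endosome that Tfrc fills, did not follow Tfrc. It was at 21.1 FPKM in the Trem2 KO library and 13.9 FPKM in the WT library, a ratio of 1.52 (interval 1.41 to 1.64). A value per gene does not separate the isoform with the iron-responsive element from those without, and the exons overlap those of Gm5475 on the other strand.

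Of 17 genes in a list for iron uptake and reduction, 13 were listed, and on the log2 scale 1 was at least 2-fold higher, 2 were lower and 10 lay between. Over all genes 3.48% were at least 2-fold higher and 13.7% at least 2-fold lower. Trf, the plasma iron carrier transferrin, was at 63.9 FPKM in the Trem2 KO library and 31.0 FPKM in the WT library, a log2 fold change of 1.02 as deposited and 0.86 with a common total. Steap4, a metalloreductase that turns ferric into ferrous iron, was at 1.83 FPKM in the Trem2 KO library and 17.3 FPKM in the WT library, 9.46-fold lower (interval 7.40 to 12.2). The list's median log2 fold change was -0.20, against -0.31 for all genes.

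Of the transporters on the way out, Slc11a1 (ENSMUSG00000026177.11, chr1:74375195-74386062), known as NRAMP1, pumps metal ions out of the phagosome of macrophages. It was at 108 FPKM in the Trem2 KO library and 88.1 FPKM in the WT library, a ratio of 1.22 (interval 1.18 to 1.28). Slc11a1 exceeded its relative Slc11a2 5.11 times in the Trem2 KO library and 6.34 times in the WT library. Of 10 genes in the list for export and the hormone hepcidin 4 were listed, and 3 reached a mean of 1 FPKM. At least 2-fold lower was 1 of these, where 13.7% of all genes were. It was Hfe, whose product binds the transferrin receptor, at 3.06 FPKM in the Trem2 KO library and 9.77 FPKM in the WT library. The hepcidin gene Hamp and the ferroxidase gene Heph were not analysed here, and the ferroxidase Cp lay within 2-fold.

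As deposited both iron sensors stood lower in the knockout, Aco1 by more than Ireb2, which lay near the median of all genes. Aco1 (ENSMUSG00000028405.9, chr4:40143081-40198338) encodes iron regulatory protein 1, which doubles as a cytosolic aconitase when it holds an iron-sulfur cluster. It was at 6.96 FPKM in the Trem2 KO library and 15.6 FPKM in the WT library, 2.24-fold lower (interval 1.99 to 2.53), with a log2 fold change of -1.06. Ireb2 (ENSMUSG00000032293.8, chr9:54863789-54912530), iron regulatory protein 2, was at 5.27 FPKM in the Trem2 KO library and 7.25 FPKM in the WT library, 1.38-fold lower (interval 1.24 to 1.53). The log2 fold change of Ireb2 was -0.40, against -0.31 for all genes, and -0.12 when the median ratio of all genes was set to 1. The ratio of Ireb2 to Aco1 was 0.758 in the Trem2 KO library and 0.464 in the WT library, so Aco1 was the higher of the pair in both.

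Among 8 listed genes for these sensors and their control, 0 were at least 2-fold higher and 2 lower, Aco1 and Cul1. The shares of all genes were 3.48% higher and 13.7% lower. The list's median was -0.50, against -0.31 for all genes. With the median ratio set to 1, 0 of the 8 were past 2-fold, where 7.32% of all genes were higher and 7.67% lower. Cul1, the scaffold of the ubiquitin ligase that removes iron regulatory protein 2, was at 13.4 FPKM in the Trem2 KO library and 30.5 FPKM in the WT library. Fbxl5, the iron-sensing subunit of that ligase, was at 13.2 FPKM in the Trem2 KO library and 9.19 FPKM in the WT library, and is named here after its values were seen.

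The mRNAs of the 2 proteins that hand iron to ferritin and release it again differed less than those of Fth1, Ftl1, Tfrc and Aco1. Pcbp1 (ENSMUSG00000051695.6, chr6:86524492-86526321), an RNA-binding protein that also delivers iron to ferritin, was at 95.2 FPKM in the Trem2 KO library and 115 FPKM in the WT library. Ncoa4 (ENSMUSG00000056234.15, chr14:32159865-32179855), the receptor that takes ferritin to the lysosome for breakdown, was at 10.1 FPKM in the Trem2 KO library and 11.9 FPKM in the WT library. Their log2 fold changes were -0.27 and -0.22 as deposited, and 0.05 and 0.08 when the median ratio of all genes was set to 1, so their direction depends on the scaling. Fth1 stood 3747 times as high as Ncoa4 in the Trem2 KO library and 1401 times in the WT library. A copy of Ncoa4 at 99.9% identity is annotated, and Pcbp1 overlaps exons of 1600020E01Rik on the other strand.

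**Figure D3:**
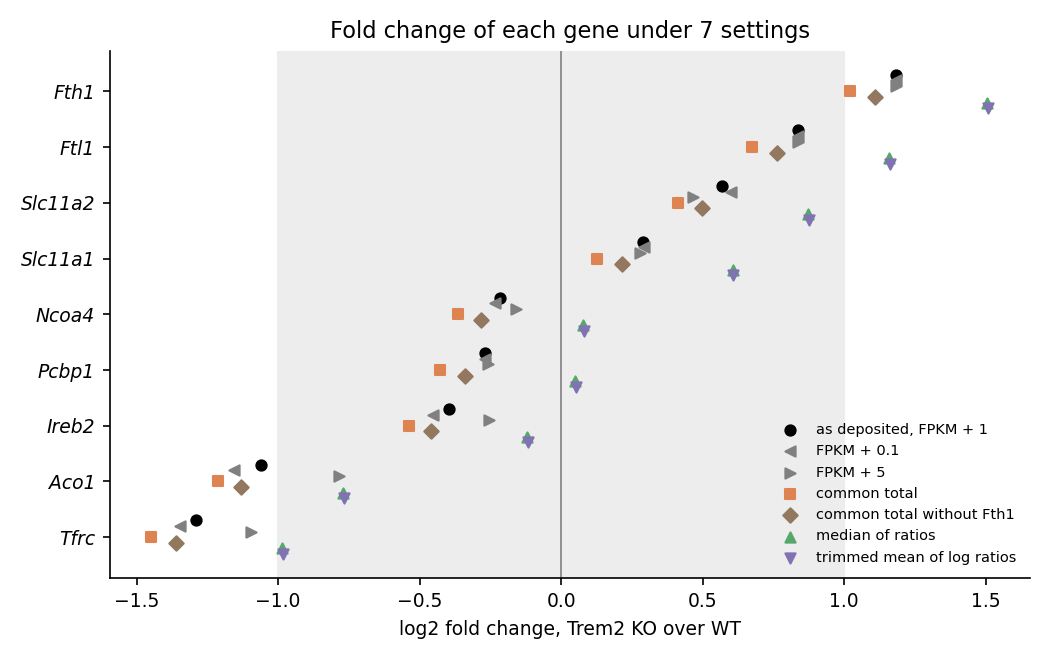
Log2 fold change of Trem2 KO over WT (x axis) for the 9 listed genes, with 1 marker for each of 7 settings (3 pseudocounts and 4 rescalings of the libraries); the grey band spans less than 2-fold. Fth1 lies beyond 2-fold in all 7, Tfrc in 5 and Aco1 in 4, and Ncoa4 and Pcbp1 cross 0.

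Of the storage and chaperone list, 7 of 9 genes reached a mean of 1 FPKM. Fth1 was the 1 at least 2-fold higher, with 0 lower and a median of 0.24. The values over all genes were 3.48% higher, 13.7% lower and a median of -0.31. All 14 genes of ferritin breakdown by autophagy lay within 2-fold as deposited on the log2(FPKM + 1) scale, with a median of -0.16. The highest of these by mean FPKM of both libraries were Gabarap and Sqstm1. Gabarap, a tag of autophagosome membranes, was at 382 FPKM in the Trem2 KO library and 283 FPKM in the WT library. The cargo receptor Sqstm1 was at 106 FPKM in the Trem2 KO library and 207 FPKM in the WT library. Becn1, which starts autophagosome formation and is named after its values were seen, was at 5.60 FPKM in the Trem2 KO library and 11.4 FPKM in the WT library, 2.03-fold lower in FPKM and -0.91 on the log2 scale. With a common total Sqstm1, at -1.13, and Becn1, at -1.05, were past 2-fold.

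Of 9 genes known to carry an iron-responsive element, 5 reached a mean of 1 FPKM. Among those with the element in the leader, Fth1 and Ftl1 had log2 fold changes of 1.18 and 0.84, and the hypoxia factor Epas1 -0.59. Among those with it in the trailer, Slc11a2 had 0.57 and Tfrc -1.29. Both positions thus held genes on either side of 0, the leader through Epas1 alone. In transcripts of Epas1 the search above found 0 fully paired elements.

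**Figure D4:**
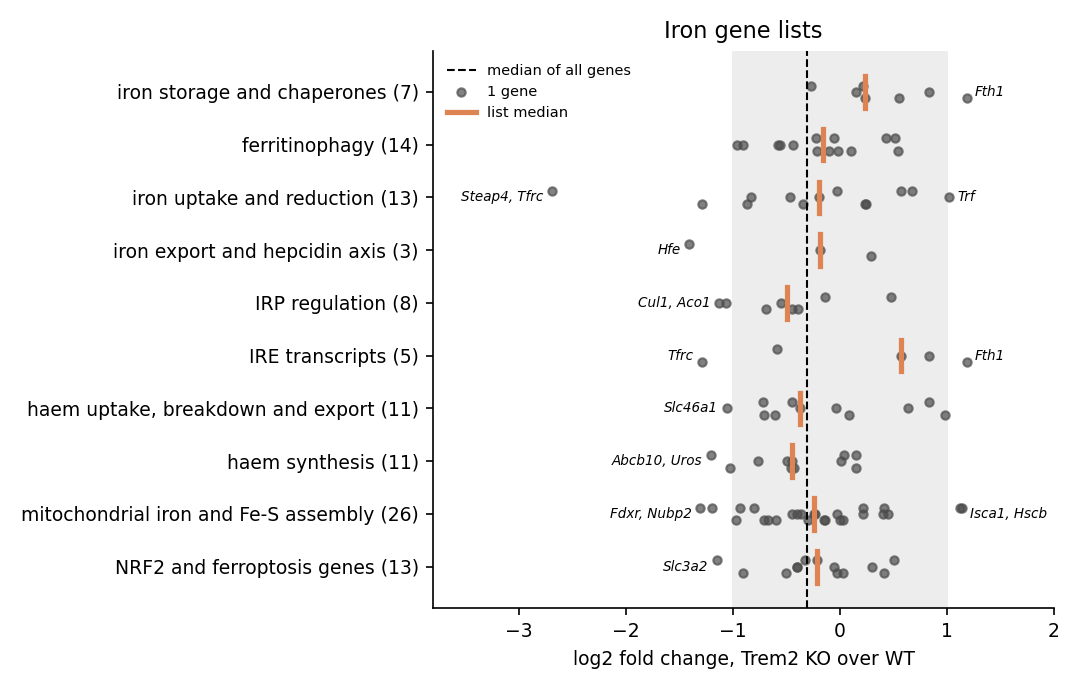
Log2 fold change of Trem2 KO over WT (x axis) of each gene averaging at least 1 FPKM (dots) in 10 iron gene lists, with the number of genes in brackets, the list median (orange) and the median of all genes (dashed); the grey band spans less than 2-fold. Named genes lie beyond 2-fold, with the genes of one side named together. List medians run from -0.50 for the iron sensors and their control to 0.57 for transcripts with an iron-responsive element.

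Haem recycling gave no common direction. Of 11 listed genes for haem uptake, breakdown and export, 0 were at least 2-fold higher on the log2(FPKM + 1) scale and 1 lower. Over all genes 3.48% were at least 2-fold higher and 13.7% at least 2-fold lower. The lower gene was Slc46a1, a folate and haem carrier, at 0.735 FPKM in the Trem2 KO library and 2.61 FPKM in the WT library. Hmox1, haem oxygenase 1, which frees iron from haem, was at 131 FPKM in the Trem2 KO library and 215 FPKM in the WT library. Slc48a1, which passes haem out of the phagolysosome, was at 168 FPKM in the Trem2 KO library and 94.1 FPKM in the WT library. Blvrb, a biliverdin reductase, was at 91.8 FPKM in the Trem2 KO library and 45.8 FPKM in the WT library, 2.003 times as high in FPKM and 0.99 on the log2 scale. These last 3 genes are named after their values were seen. With the median ratio set to 1 Slc48a1, at 1.15, and Blvrb, at 1.30, were past 2-fold on the log2 scale. Under that scaling 7.32% of all genes were at least 2-fold higher and 7.67% at least 2-fold lower.

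Haem synthesis had 2 of 11 genes at least 2-fold lower and 0 higher, both at low levels. For this and the lists that follow, the shares over all genes were 13.7% lower and 3.48% higher. Abcb10, a mitochondrial transporter, was at 0.569 FPKM in the Trem2 KO library and 2.62 FPKM in the WT library, and the enzyme gene Uros at 0.339 FPKM in the Trem2 KO library and 1.72 FPKM in the WT library. Mitochondrial iron import and iron-sulfur cluster assembly had 2 of 26 genes higher, 2 lower and 22 between, with a median of -0.24. The assembly genes Hscb, at 48.3 FPKM in the Trem2 KO library and 21.4 FPKM in the WT library, and Isca1, at 5.04 FPKM in the Trem2 KO library and 1.77 FPKM in the WT library, were the higher ones, and with a common total Hscb had a log2 fold change of 0.98. The lower ones were Fdxr, at 1.68 FPKM in the Trem2 KO library and 5.62 FPKM in the WT library, and Nubp2, at 7.83 FPKM in the Trem2 KO library and 19.3 FPKM in the WT library. Among 13 listed genes linked to NRF2 or to lipid peroxidation, 0 were higher and 1 lower, Slc3a2. Slc3a2, a subunit of the cystine importer, was at 62.8 FPKM in the Trem2 KO library and 141 FPKM in the WT library.

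Of the 9 iron-handling genes, all of which averaged at least 1 FPKM, 1 was at least 2-fold higher (Fth1), 2 were lower (Tfrc and Aco1) and 6 lay between, with a median log2 fold change of -0.22 against -0.31 for all genes. The background was 3.48% of all genes higher, 347 of 9962, and 13.7% lower, 1364. Setting the median ratio of all genes to 1 raises the log2 ratio of FPKM by 0.32, and a common total changes it by -0.16. With the pseudocount low genes move by less, Uros for example being at -1.02 as deposited and -0.88 with the median ratio set to 1. With the median ratio set to 1, 727 genes (7.32%) were higher and 762 (7.67%) lower, Fth1 and Ftl1 were the genes of the group beyond 2-fold, and Tfrc, at -0.99, and Aco1, at -0.77, were not. Cul1, Slc46a1, Uros, Nubp2 and Slc3a2 also lay within 2-fold under this scaling. With a common total, Sqstm1, Becn1, Abcb8, Ndor1 and Acsl4 of the iron lists were past 2-fold lower and Trf and Hscb lay within 2-fold. Since these genes were chosen from the same contrast, nothing is read from their count.

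**Figure D5:**
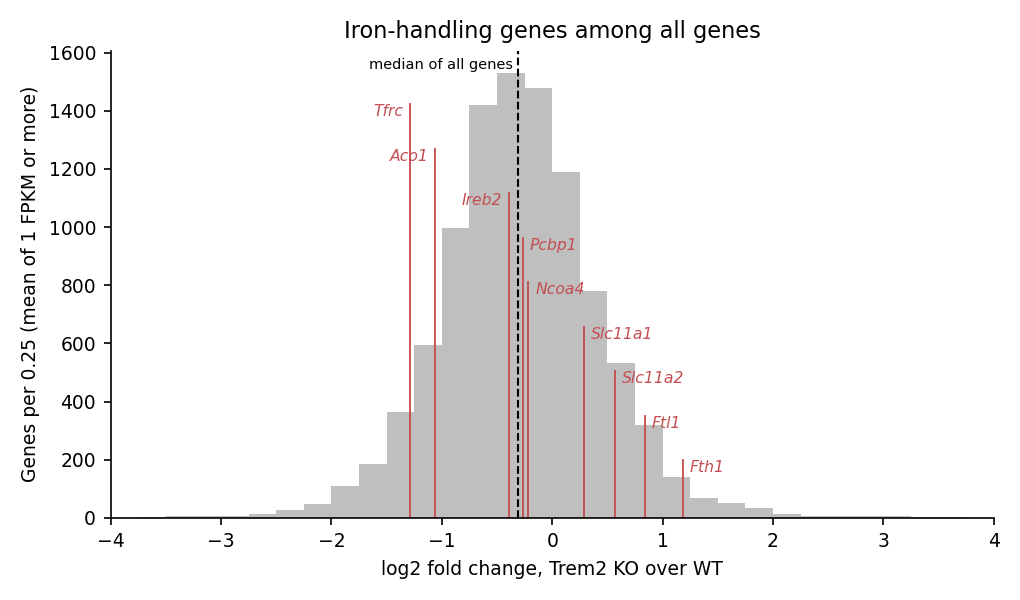
Number of genes per 0.25 of log2 fold change of Trem2 KO over WT (x axis) for 9962 genes averaging at least 1 FPKM, of which 13 lie beyond 4 in size and outside the plot; red lines mark the 9 iron-handling genes (line height has no meaning) and the dashed line the median of all genes, -0.31. Fth1 lies in the right tail at 1.18 and Tfrc in the left part at -1.29.

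The genes closest to Fth1 in log2 fold change, among 443 others that averaged at least 100 FPKM, were Rps25 (1.18), Ftl1-ps1 (1.19), Gm2a (1.22), Ninj1 (1.23) and Hexa (1.23), where Fth1 had 1.18. This likeness rests on 2 libraries, that is on a single ratio per gene. Rps25 is a ribosomal protein, and Gm2a and Hexa belong to lysosomal breakdown of gangliosides.

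Markers of other cell types moved as well. The 8 fibroblast markers summed to 408 FPKM in the Trem2 KO library and 237 FPKM in the WT library. Of the 8, 3 were at least 2-fold higher and 1 lower, where 3.48% of all genes were higher and 13.7% lower. The 8 mesothelial markers summed to 6.44 FPKM in the Trem2 KO library and 19.5 FPKM in the WT library, and the 5 listed of 9 neutrophil markers to 28.8 FPKM in the Trem2 KO library and 57.3 FPKM in the WT library. Listed mast cell (3 of 6) and endothelial (2 of 5) markers summed to 2.67 and 1.41 FPKM in the Trem2 KO library and to 10.9 and 5.92 FPKM in the WT library. Of 11 erythroid markers, of interest because red cell precursors are rich in iron genes, 1 was listed, Tal1, at 0.316 FPKM in the Trem2 KO library and 0.622 FPKM in the WT library, and the globin genes were not analysed here. B cell markers (3 of 6 listed) summed to 10.6 FPKM in the Trem2 KO library and 9.59 FPKM in the WT library, and T and NK cell markers (2 of 8) to 2.45 FPKM in the Trem2 KO library and 2.33 FPKM in the WT library. The part of these cells in the values of the iron genes was not tested.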

How the data were processed

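Per the labels' protocols, total RNA was kept in Trizol, the second cDNA strand was marked with dUTP, and an Illumina NovaSeq read the libraries. The authors deposited FPKM per gene in 1 table with 1 column per library, per the file headers, and the submitters' processing notes name mm10. The sources used here do not give the aligner, quantifier, annotation or any further scaling. Each listed gene reached 0.501 FPKM in at least 1 library. Groups came from the sample titles.

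Fold changes used a pseudocount of 1 FPKM, which understates changes of low genes, and genes were counted by size, 2-fold or more at a mean of 1 FPKM or more. Of 11349 gene IDs 9914 matched GENCODE M21 with version and position. FPKM times exon length was set against whole steps over low single-transcript values. It fell within 0.1 steps in 72.6% of 252 values in the Trem2 KO library and 65.8% of 187 in the WT library. Chance gives 20% for a step set beforehand. The step was picked on these same values, so chance would give more than that. A count of 300 steps was taken as 1 fragment. For Fth1 and Tfrc, whose ID versions or positions differ, the exon bases of the first GENCODE transcript inside the deposited locus (866 and 4890) were used. Copies were sought with BLAST 2.17.0. The step search was tested on exact multiples of a known step. The 2-fold counts and the intervals were tested on simulated fragments at the estimated depths. That 300 steps make 1 fragment was not tested, although the depths and intervals rest on it.

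The members and lists were chosen with earlier results of these data known, and 2 genes of the lists are not reported here. From each list the text names genes past 2-fold, at most 6, or else the 2 with the highest mean. Alternatives were 2 other pseudocounts, 4 rescalings, 2 filters, 2 thresholds and 2 other totals for shares. Values were computed in Python 3.11.15 with pandas 2.3.3, scipy 1.17.1 and numpy 2.4.6, and drawn with matplotlib 3.10.9.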

Additional observations from a re-analysis of the deposited data

How the results depend on the processing

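Fth1 stayed at least 2-fold higher in the Trem2 KO library under all 6 alternatives run for single genes, from 1.02 with a common total to 1.51 with a trimmed mean of log ratios (log2). Tfrc ranged from -1.45 to -0.98 and did not reach 2-fold under the median of ratios and the trimmed mean; Aco1 ranged from -1.21 to -0.77 and did not reach it under these and a pseudocount of 5 FPKM. Ftl1 ranged from 0.67 to 1.16 and passed 2-fold under the median of ratios and the trimmed mean. The sum of Ftl1 and Ftl1-ps1, chosen after seeing the data, was computed as deposited only. It had 0.89, against 0.84 for Ftl1 alone on that scale. No value past 2-fold changed sign.

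Counts of the 9 genes were 1 higher and 2 lower as deposited. They were 2 higher and 0 lower under the median of ratios and under the trimmed mean, 1 lower with a pseudocount of 5 FPKM, 2 higher at 1.5-fold, and 0 higher and 0 lower at 4-fold. Over all genes, 347 higher and 1364 lower as deposited, the counts were 727 and 762 under the median of ratios, 730 and 759 under the trimmed mean, 174 and 394 with a pseudocount of 5 FPKM, 995 and 3254 at 1.5-fold, and 51 and 113 at 4-fold. Lower genes alone were 2075 with a pseudocount of 0.1 FPKM and 746 at a mean of 5 FPKM or more. The share of Fth1 was 11.5% in the Trem2 KO library and 5.76% in the WT library without mitochondrially encoded genes, and 11.3% in the Trem2 KO library and 5.58% in the WT library over genes that reached 1 FPKM in each. These shifts follow from the rescaling, threshold or gene set used. No paired analysis was possible because there is 1 library in each group. Depth limits low genes such as Uros, with an estimated 15 fragments in the Trem2 KO library and 83 in the WT library.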
